A study of Mus musculus with 24 samples.

Results

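CD8+ T cells that had spent 8 hours beside melanoma cells carrying the hairpin shFto-1 were compared with CD8+ T cells that had spent 8 hours beside melanoma cells carrying shFto-2. Both hairpins are directed at the same gene, Fto, and both act in the tumour cells only. The comparison takes the 4 T cell libraries labelled with these hairpins, 2 for each, out of 24 samples in the series, and every gene of the T cell count table. The 2 libraries of T cells beside tumour cells with the hairpin shNC serve as the level against which each line is placed. All T cells were naive CD8+ cells of OT-I mice on the C57BL/6 background, which carry a single transgenic receptor for a peptide of ovalbumin. All tumour cells were B16-OVA, a mouse melanoma line that makes ovalbumin, kept in puromycin before use. The co-culture medium held 50 U of IL-2, and the T cells were sorted afterwards. The rest of the series holds RNA, ATAC and m6A sequencing of the tumour cells.

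FTO removes methyl groups from N6-methyladenosine, a mark on messenger RNA that bears on splicing, stability and translation. A naive CD8+ T cell that meets its antigen first turns on immediate early genes and cytokines. It then raises MYC-driven ribosome production and killing proteins, and lowers genes of the resting state such as the IL-7 receptor. Interferons act on the same cells through 2 routes, which end mainly at GAS elements for interferon gamma and at ISRE elements for type I interferon.

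Genes of activation and of the resting state were both among those that separated the 2 co-cultures. The killing proteins granzyme B and perforin, the inhibitory receptor PD-1 and 5 of 32 genes of a MYC and nucleolar list were lower beside shFto-1. The IL-7 receptor, Tcf7 and Lef1 were higher, among 7 of 31 resting genes, as were 8 of 37 receptor-proximal signalling genes, 5 of 8 GIMAP genes and 8 of 10 guanylate-binding proteins. For Gzmb, Pdcd1, Il7r and Irf1 the libraries beside shFto-1 lay between those beside shFto-2 and those beside shNC. Interferon-stimulated genes split, with Irf1 and those guanylate-binding proteins higher beside shFto-1 and 4 of 4 Ifit genes, Rsad2, Mx1 and Cmpk2 lower. Over all genes tested, 1.42% were called higher and 0.491% lower. The GIMAP, guanylate-binding and Ifit families were picked after their values were seen.

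Library totals were 13066355 and 5166653 counts beside shFto-1, 9294666 and 6549224 beside shFto-2, and 2628158 and 6567685 beside shNC. The table held 24421 genes, of which 12824 passed the filter on low counts and were tested. Levels are given as CPM, counts scaled to the size of their library by TMM, and fold changes are shFto-1 over shFto-2 on the log2 scale. A gene was called at an adjusted p under 0.05 in edgeR's quasi-likelihood test with p-values adjusted over the whole table by Benjamini and Hochberg's method. Nothing in the labels ties the 2 libraries of a group to separate cultures or mice, so the p-values measure the spread between libraries, which may be technical. In bulk RNA, fewer cells in a given state and less RNA per cell cannot be told apart. In the tumour cells' own RNA libraries, which are labelled shFto without a hairpin number, Fto lay at 31.7, 33.5 and 28.3 CPM with shFto, against 107.4, 108.5 and 91.8 CPM with shNC. How far each hairpin lowered Fto was therefore not measured line by line. The T cells carry no hairpin, and their Fto was at 42.5 and 38.7 CPM in the shFto-1 co-cultures, 50.0 and 50.5 CPM in the shFto-2 co-cultures and 36.1 and 47.1 CPM in the shNC co-cultures; Fto was not called between the lines (adjusted p = 0.347).

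On the first principal component of 8186 genes at 10 CPM or more, which held 76.5% of the variance, the 2 libraries beside shFto-1 lay between the 2 beside shFto-2 and the 2 beside shNC. On the second component, which held 9.45%, the libraries of every group stood apart from each other. They lay at 17.4 and 2.5 beside shFto-1, at -1.66 and -11.7 beside shFto-2 and at -10.1 and 3.53 beside shNC. Of the same genes, 49 lay at least 2-fold apart between the 2 libraries beside shFto-1, 39 between the 2 beside shFto-2 and 100 between the 2 beside shNC. Between the lines, 57 to 307 genes lay that far apart, the most against replicate 2 beside shFto-2. Libraries beside shFto-1 lay at least 2-fold from shNC libraries at 446 to 664 genes, and libraries beside shFto-2 at 1105 to 1625 genes.

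**Figure D1:**
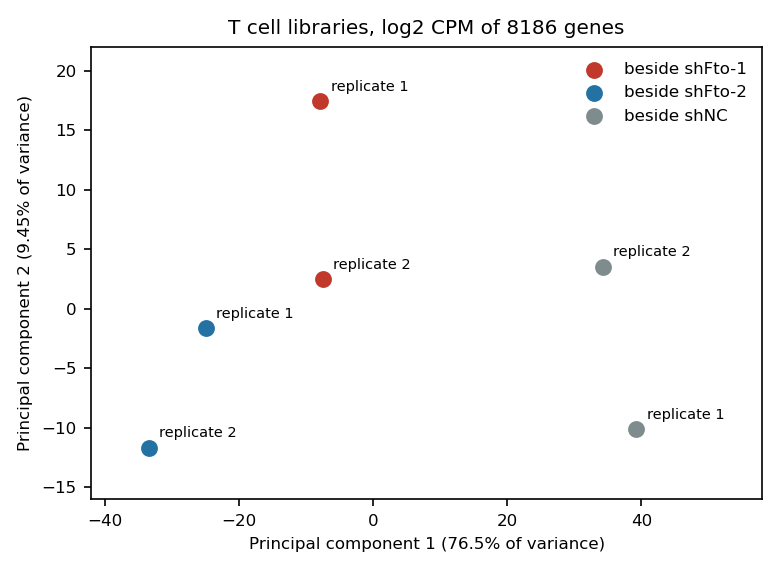
Positions of the 6 T cell libraries on the first 2 principal components of log2 CPM, each axis labelled with its share of the variance and each point 1 library coloured by the tumour line beside it. The libraries beside shFto-1 sit between those beside shFto-2 on the left and those beside shNC on the right.

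Of the 12824 genes, 245 were called between the lines (1.91%), 182 higher (1.42%) and 63 lower (0.491%) beside shFto-1. At least 2-fold differences made up 56 of them (0.437%). This count rests on few libraries. Without replicate 1 beside shFto-1 a single gene, Sla2, stayed called, without replicate 2 beside shFto-2 68 were called, without replicate 1 beside shFto-2 507 and without replicate 1 beside shNC 380. DESeq2 called 1008 of the 8005 genes it adjusted (12.6%), 522 higher (6.52%) and 486 lower (6.07%), so the share of higher genes depended on the test, 51.8% by DESeq2 and 74.3% by edgeR. Each of the 245 genes kept its direction in every alternative in which it was fitted. Since the alternatives reuse the libraries that chose these genes, this was largely given in advance. At an unadjusted p under 0.05 there were 2095 genes (16.3%), 9.32% higher and 7.02% lower. The libraries of the lines did not overlap at 5985 genes (46.7%), 23.2% with shFto-1 higher and 23.5% with shFto-1 lower.

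Each line was also set against shNC in the same fit, and since both comparisons use the same 2 shNC libraries only their own values are given side by side. Beside shFto-1, 2853 genes were called against shNC (22.2%), 15.4% higher and 6.84% lower. Beside shFto-2, 4322 were called (33.7%), 20.4% higher and 13.3% lower. The 182 genes higher beside shFto-1 had a median log2 fold change against shNC of -0.63 beside shFto-1, where 135 were called lower than shNC and 1 higher. Their median beside shFto-2 was -1.51, and 181 were called lower than shNC there. For the 63 genes lower beside shFto-1, the median against shNC was 0.93 beside shFto-1, with 51 called higher than shNC. Beside shFto-2 it was 1.49, with 62 called higher. Both sets were chosen by the difference between the lines in this same fit. The order of the medians in each set followed from that choice and is no separate result.

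**Figure D2:**
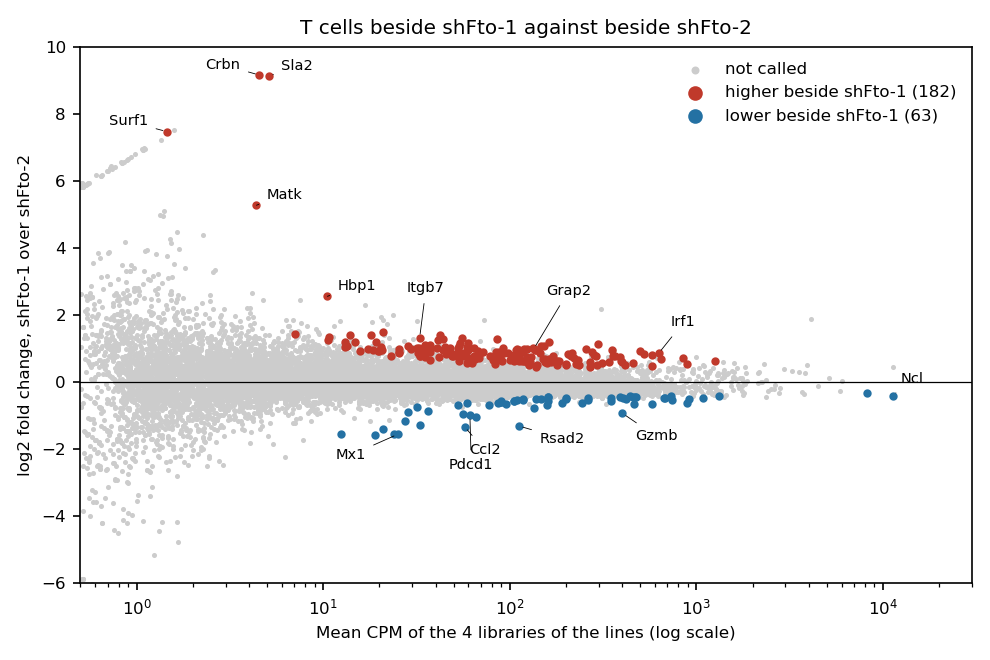
Log2 fold change of shFto-1 over shFto-2 against the mean CPM of the 4 libraries (log scale) for each tested gene from a mean of 0.5 CPM and a log2 fold change of -6 upwards, called genes coloured by direction. Most of the 182 higher and 63 lower genes lie within 2-fold, and 56 differ by at least that much. Among these, 4 genes with 0 or 3 counts beside shFto-2 lie at the upper left.

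Genes of killing and effector function moved in both directions. Granzyme B, the protease of cytotoxic granules (Gzmb, chr14:56258836-56262334), lay at 283 and 270.4 CPM next to shFto-1 cells, against 542 and 509.7 CPM next to shFto-2 cells and 91.8 and 98.1 CPM next to shNC cells. The groups did not overlap, with shFto-2 highest and shNC lowest (log2 fold change -0.93, SE 0.091, adjusted p = 0.0186). Perforin, which forms the pore that lets granzymes in (Prf1), lay at 44.2 and 41.9 CPM for shFto-1, at 90.5 and 88.2 CPM for shFto-2 and at 13.9 and 21.0 CPM for shNC (log2 fold change -1.05, SE 0.15, adjusted p = 0.0222). The chemokine Ccl2 and the nitric oxide synthase Nos2, both among the largest falls, had the same order. Ccl2 lay at 33.4 and 31.6 CPM in the shFto-1 co-cultures, 75.4 and 88.3 CPM in the shFto-2 co-cultures and 6.79 and 8.67 CPM in the shNC co-cultures, with log2 fold change -1.33, SE 0.14, adjusted p = 0.0186. Nos2 lay at 8.51 and 10.9 CPM next to shFto-1 cells, against 25.9 and 30.6 CPM next to shFto-2 cells and 1.43 and 1.26 CPM next to shNC cells, with log2 fold change -1.56, SE 0.23, adjusted p = 0.0222. Their mean levels in the tumour cells' own shFto libraries were 0.154 CPM for Ccl2 and 0 for Nos2.

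The other 3 effector molecules called, all cytokines, went the other way. GM-CSF (Csf2) lay at 49.9 and 47.6 CPM for shFto-1, at 24.7 and 27.7 CPM for shFto-2 and at 49.3 and 41.9 CPM for shNC, so that only the shFto-2 libraries stood lower (log2 fold change 0.90, SE 0.14, adjusted p = 0.0222). Tumour necrosis factor (Tnf) had a fold change of 0.62 (adjusted p = 0.0448) and lymphotoxin beta (Ltb) one of 0.91 (adjusted p = 0.0222). Interferon gamma, a main cytokine of CD8+ effector cells, was not called. Ifng lay at 2422 and 2245 CPM in the shFto-1 co-cultures, 2041 and 1808 CPM in the shFto-2 co-cultures and 1179 and 1117 CPM in the shNC co-cultures (log2 fold change 0.28, SE 0.09, adjusted p = 0.148), above shNC beside both lines. In all, 3 of 23 tested effector molecules were higher and 2 lower, with a median of -0.07 against 0.02 over all genes. The list of chemokines and chemokine receptors, which does not hold Ccl2, had 0 of 19 tested called by edgeR, 4 higher at an unadjusted p under 0.05 and 2 higher by DESeq2. Ccl3 and Ccl4, which attract other immune cells, had fold changes of -0.17 and 0.13. Without replicate 1 beside shFto-1 no effector molecule was called, Gzmb having an adjusted p of 0.0812 with a fold change within -0.97 to -0.86 across all left-out libraries.

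**Figure D3:**
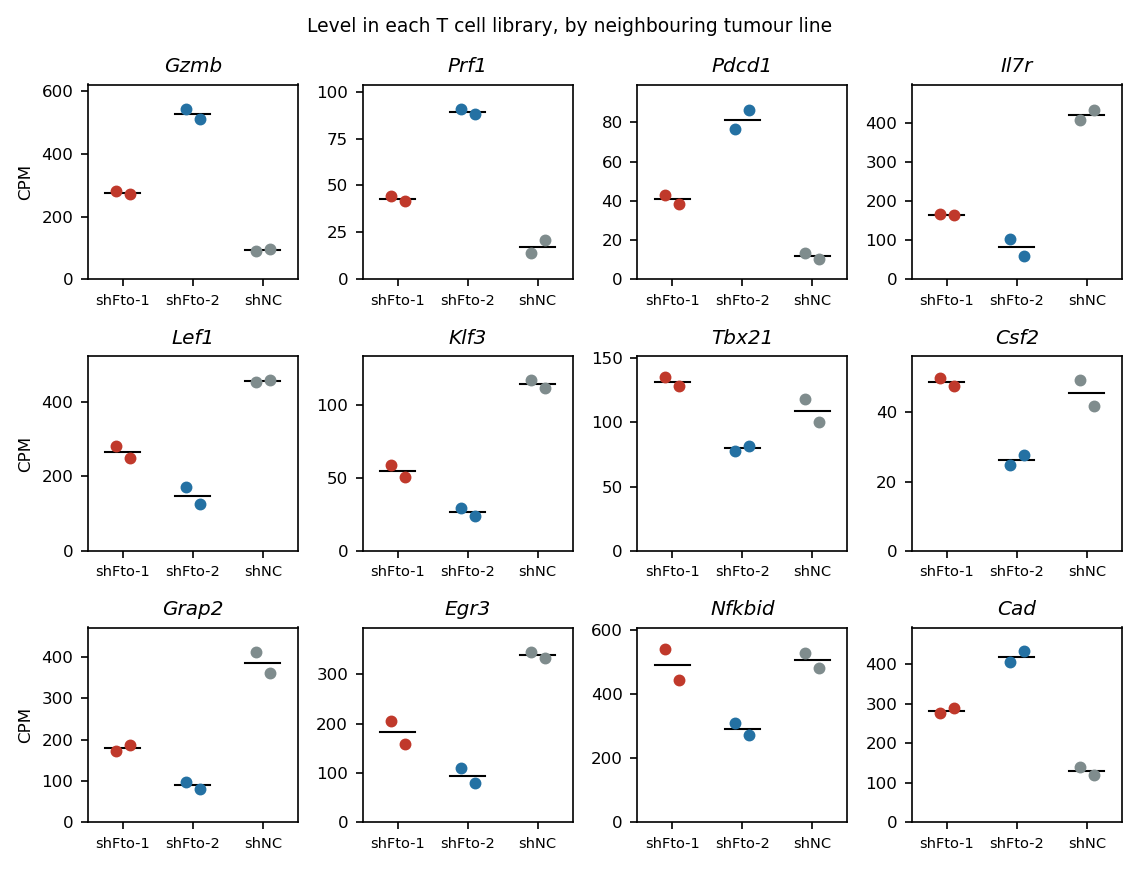
CPM of 12 genes in each T cell library (points) with the group mean (bar), panels ordered shFto-1, shFto-2, shNC and each axis starting at 0. Gzmb, Prf1, Pdcd1 and Cad lie between the other groups beside shFto-1 and are highest beside shFto-2, while Tbx21, Csf2 and Nfkbid stand low beside shFto-2 alone.

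Among inhibitory receptors and ligands, 1 of 16 tested was lower beside shFto-1 and 2 were higher. PD-1 (Pdcd1, chr1:94038305-94052553), which T cell receptor signals induce, lay at 43.2 and 38.5 CPM next to shFto-1 cells, against 76.3 and 86.4 CPM next to shFto-2 cells and 13.2 and 10.5 CPM next to shNC cells. No library of 1 group reached those of another (log2 fold change -0.98, SE 0.14, adjusted p = 0.0222). Lag3, a second inhibitory receptor, lay at 17.7 and 10.3 CPM for shFto-1, at 32.0 and 30.5 CPM for shFto-2 and at 2.86 and 2.94 CPM for shNC and missed the threshold (adjusted p = 0.0526). PD-L1 (Cd274), the ligand of PD-1, was higher beside shFto-1 at 0.52 (adjusted p = 0.045), and so was the NK-type receptor chain Klrd1 at 0.97 (adjusted p = 0.038). Of 21 tested costimulatory receptors edgeR called none. There 5 had an unadjusted p under 0.05, 3 of them higher, and DESeq2 called 1.

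The resting and memory genes had a median of 0.54, and 7 of 31 were higher beside shFto-1 and 0 lower. Of the 25 lists this was the highest median, next to 0.52 for G2 and mitosis genes, but without replicate 2 beside shFto-2 that order turned, with 0.40 against 0.54. Il7r, the receptor for the survival cytokine IL-7, lay at 166 and 165 CPM in the shFto-1 co-cultures, 104 and 60.9 CPM in the shFto-2 co-cultures and 409 and 434 CPM in the shNC co-cultures. The libraries beside shFto-1 again lay between the others, here above shFto-2 and below shNC, with the 2 shFto-2 libraries well apart from each other (log2 fold change 0.99, SE 0.19, adjusted p = 0.04). Klf3, a repressor of the Krüppel-like family, lay at 58.8 and 50.3 CPM next to shFto-1 cells, against 29.7 and 24.2 CPM next to shFto-2 cells and 117 and 112 CPM next to shNC cells (log2 fold change 1.02, SE 0.14, adjusted p = 0.0222). The transcription factors TCF-1 and LEF-1, which maintain naive and memory cells, followed with Tcf7 at 0.79 (adjusted p = 0.04) and Lef1 at 0.83 (adjusted p = 0.0264). Myb, Txnip and Tsc22d3 were the others called. In 28 of the 31 genes both libraries beside shFto-1 lay above both beside shFto-2, against 23.2% of all tested genes. The median stayed between 0.40 and 0.75 whichever library was left out, but no member was called without replicate 1 beside shFto-1 and 17 were without replicate 1 beside shFto-2.

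Genes of antigen receptor signalling were higher beside shFto-1 in 8 of 37 tested and lower in 0, with a median of 0.26. The adaptor Grap2, which links SLP-76 to the receptor complex, lay at 172 and 186 CPM for shFto-1, at 98.4 and 80.8 CPM for shFto-2 and at 411 and 360.3 CPM for shNC (log2 fold change 0.99, SE 0.12, adjusted p = 0.0218). Dgka, which removes the second messenger diacylglycerol, lay at 339 and 338 CPM in the shFto-1 co-cultures, 207 and 136 CPM in the shFto-2 co-cultures and 774 and 728 CPM in the shNC co-cultures (log2 fold change 0.98, SE 0.16, adjusted p = 0.0257). Rasgrp1, the Ras activator that diacylglycerol recruits, had a fold change of 0.67 (adjusted p = 0.0375). The receptor chains Cd247 at 0.55 (adjusted p = 0.0385) and Cd8b1 at 0.46 (adjusted p = 0.0499) were the smallest of these changes. DESeq2 called 13 members higher and 4 lower, 17 were higher and 5 lower at an unadjusted p under 0.05, and without replicate 1 beside shFto-1 edgeR called 1. The members edgeR called hold both activators and inhibitors of the pathway, since Dgka and the adaptor Sla2 restrain it.

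Sla2 (chr2:156874151-156887250) and Matk (chr10:81252935-81262985), a kinase that restrains Src-family kinases, had 3 counts or fewer in each library beside shFto-2. Sla2 had 92 and 66 counts beside shFto-1, 0 and 0 beside shFto-2, and 139 and 221 beside shNC. Taken over a floor of 3 counts for the pair of shFto-2 libraries, its pooled counts were 45.9-fold higher beside shFto-1. With counting error in the shFto-1 libraries taken in as well, the exact 95% interval of the ratio starts at 36.9. Matk had 101 and 45 counts beside shFto-1, 0 and 3 beside shFto-2, and 58 and 161 beside shNC. Its ratio of shFto-1 over shFto-2 was 42.4, with an exact 95% interval from 14.2 to 208 that covers counting error only. The fitted log2 fold change of Matk was 5.28, but 4.12 without replicate 1 and 8.95 without replicate 2 beside shFto-2, and Matk was not called without replicate 1 beside shFto-1 (adjusted p = 0.0812). Crbn, the substrate receptor of a ubiquitin ligase, and Surf1, an assembly factor of cytochrome oxidase, were picked after their values were seen, as the other called genes with no count beside shFto-2. Crbn had 188 and 15 counts beside shFto-1, 0 and 0 beside shFto-2, and 154 and 360 beside shNC. By the same floor its pooled counts were 59.0-fold higher beside shFto-1, with an interval from 47.5. Surf1 had 62 and 4 counts beside shFto-1, 0 and 0 beside shFto-2, and 57 and 117 beside shNC. Its pooled counts were 19.2-fold higher, with an interval from 15.2. The folds and intervals of Sla2, Crbn and Surf1 pool the libraries of a group and leave out the spread between replicates. They are therefore no lower bound for a single library. Counts of Crbn and Surf1 beside shFto-1 came mostly from replicate 1. Both are expressed in the tumour cells, at a mean of 41.4 CPM for Crbn and 25.9 CPM for Surf1 with shFto. Pigment transcripts of those cells were counted in the same shFto-2 libraries. The counting tool is not given in the sources used here, and its part in the counts of 0 for Sla2, Crbn and Surf1 was not tested.

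Early response genes that antigen receptor signals induce were higher beside shFto-1 in 4 of 31 and lower in 1. Egr3, a transcription factor downstream of NFAT, lay at 205 and 159.7 CPM next to shFto-1 cells, against 109 and 79.4 CPM next to shFto-2 cells and 346 and 334 CPM next to shNC cells (log2 fold change 0.95, SE 0.16, adjusted p = 0.0264), the highest values being those beside shNC. Nfkbid, a nuclear regulator of NF-kappaB, lay at 538 and 442 CPM for shFto-1, at 309.9 and 273 CPM for shFto-2 and at 528 and 482 CPM for shNC (log2 fold change 0.75, SE 0.12, adjusted p = 0.0229), so that shFto-1 overlapped shNC and shFto-2 lay below both. Jun at 0.59 (adjusted p = 0.0499) and the activation marker Cd69 at 0.55 (adjusted p = 0.0372) shared that arrangement. Spry1, a feedback inhibitor of MAP kinase signalling, was the exception at -0.48 (adjusted p = 0.0397), lying at 226 and 210.4 CPM in the shFto-1 co-cultures, 299.6 and 310.2 CPM in the shFto-2 co-cultures and 95.4 and 90.2 CPM in the shNC co-cultures. Nr4a1 was not called, with a fold change of 0.28.

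Cytokine receptors were higher in 5 of 30 and lower in 1. The alpha chain of the IL-2 receptor, Il2ra, lay at 561 and 563 CPM next to shFto-1 cells, against 747 and 815 CPM next to shFto-2 cells and 361 and 343 CPM next to shNC cells (log2 fold change -0.47, SE 0.089, adjusted p = 0.0374). Receptors for cytokines that limit or steer the response lay the other way, with Tgfbr2 at 0.90 (adjusted p = 0.0264), Ifngr1 at 0.95 (adjusted p = 0.0421), Il18r1 at 0.94 (adjusted p = 0.0499), Ifnar1 at 0.65 (adjusted p = 0.0363) and Il4ra at 0.55 (adjusted p = 0.0372). Of 21 tested effector transcription factors 2 were higher and 0 lower. T-bet (Tbx21), which drives the type 1 effector programme, lay at 135 and 128 CPM for shFto-1, at 78.0 and 81.9 CPM for shFto-2 and at 118 and 100.0 CPM for shNC, with the shFto-1 libraries above both other groups (log2 fold change 0.72, SE 0.11, adjusted p = 0.0222). Ikzf2, the factor Helios, had a fold change of 0.78 (adjusted p = 0.0421). DESeq2 called 3 of these factors higher and 2 lower. Without replicate 1 beside shFto-1 no early response gene or cytokine receptor was called, and the medians over all left-out libraries ran from 0.16 to 0.33 for the first list and from 0.20 to 0.42 for the second.

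In the list of MYC and nucleolar ribosome production, which also holds Cad, 5 of 32 genes were lower beside shFto-1 and 0 higher. All 32 fold changes were below 0, the median was -0.34, and in all 32 both libraries beside shFto-1 lay below both beside shFto-2, against 23.5% of all tested genes. Cad, which opens pyrimidine synthesis, lay at 276 and 288 CPM in the shFto-1 co-cultures, 405 and 432 CPM in the shFto-2 co-cultures and 139 and 120.0 CPM in the shNC co-cultures (log2 fold change -0.57, SE 0.1, adjusted p = 0.0295). Nucleolin (Ncl), a major nucleolar protein, lay at 9549.6 and 9918 CPM next to shFto-1 cells, against 12468 and 13163 CPM next to shFto-2 cells and 4730.5 and 4852 CPM next to shNC cells (log2 fold change -0.40, SE 0.066, adjusted p = 0.0257). The processome subunits Utp20 and Heatr1 had fold changes of -0.47 (adjusted p = 0.04) and -0.44 (adjusted p = 0.0457), and the nucleolar protein Mybbp1a one of -0.46 (adjusted p = 0.0434). Myc itself lay at 1140.3 and 1170.4 CPM for shFto-1, at 1184 and 1248 CPM for shFto-2 and at 844 and 716 CPM for shNC, a fold change of -0.073 that was not called. The median stayed between -0.35 and -0.31 whichever library was left out. No member was called without replicate 1 beside shFto-1 or without replicate 2 beside shFto-2, and 23 were called by DESeq2, all lower.

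Other biosynthetic lists leaned the same way with few or no calls. Of 20 aminoacyl-tRNA synthetases, which charge transfer RNAs, edgeR called none at a median of -0.28, while 11 were lower at an unadjusted p under 0.05 and DESeq2 called 9. Cytosolic heat shock genes had a median of -0.29, with Hspd1 at -0.53 (adjusted p = 0.0499) and Hsp90ab1 at -0.32 (adjusted p = 0.0476) lower. The proteasome had 1 of 33 called, Psmd1 at -0.41 (adjusted p = 0.0499). Amino acid transport and ATF4 targets, the unfolded protein response, and mitochondrial ribosome and import had medians of -0.13, -0.18 and -0.15 and no call by edgeR. At an unadjusted p under 0.05 these lists held 10, 3 and 4 lower members and 1, 1 and 0 higher ones, and DESeq2 called 6, 3 and 3, all lower. Ribosomal protein genes lay on the other side, at a median of 0.29 with 0 of 38 called by edgeR. There 17 had an unadjusted p under 0.05, all higher, and DESeq2 called 4.

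Glycolysis, which the title of the study names for the tumour cells, had 1 of 32 genes called in the T cells. That gene, Pdk1, which holds pyruvate back from the mitochondria, was higher beside shFto-1 (log2 fold change 0.45, SE 0.092, adjusted p = 0.045), and the list's median was -0.05. Respiratory chain genes had 0 of 29 called at a median of 0.01, with 2 lower at an unadjusted p under 0.05 and 2 called by DESeq2. Sterol and fatty acid synthesis had 0 of 27 called at a median of -0.06, with 2 higher and 3 lower at an unadjusted p under 0.05 and 4 called by DESeq2. Of 20 m6A writers, erasers and readers edgeR called none, 3 were lower at an unadjusted p under 0.05, and DESeq2 called 2.

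Of the cell cycle genes 1 was called. G2 and mitosis genes had a median of 0.52 with 9 of 24 higher at an unadjusted p under 0.05 and 5 higher by DESeq2, none lower by either. The 1 called by edgeR was the proliferation marker Mki67, which lay at 141 and 156 CPM in the shFto-1 co-cultures, 103 and 104 CPM in the shFto-2 co-cultures and 140.0 and 161 CPM in the shNC co-cultures (log2 fold change 0.52, SE 0.11, adjusted p = 0.0476). DNA replication genes had a median of -0.07 with 0 of 30 called by edgeR, 1 higher and 5 lower at an unadjusted p under 0.05, and 1 higher and 4 lower by DESeq2. Tumour libraries hold much more of these transcripts, at a mean of 1142 CPM for Mki67 with shFto. In the apoptosis list 1 of 26 was called, the death receptor Fas at 0.78 (adjusted p = 0.0374).

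**Figure D4:**
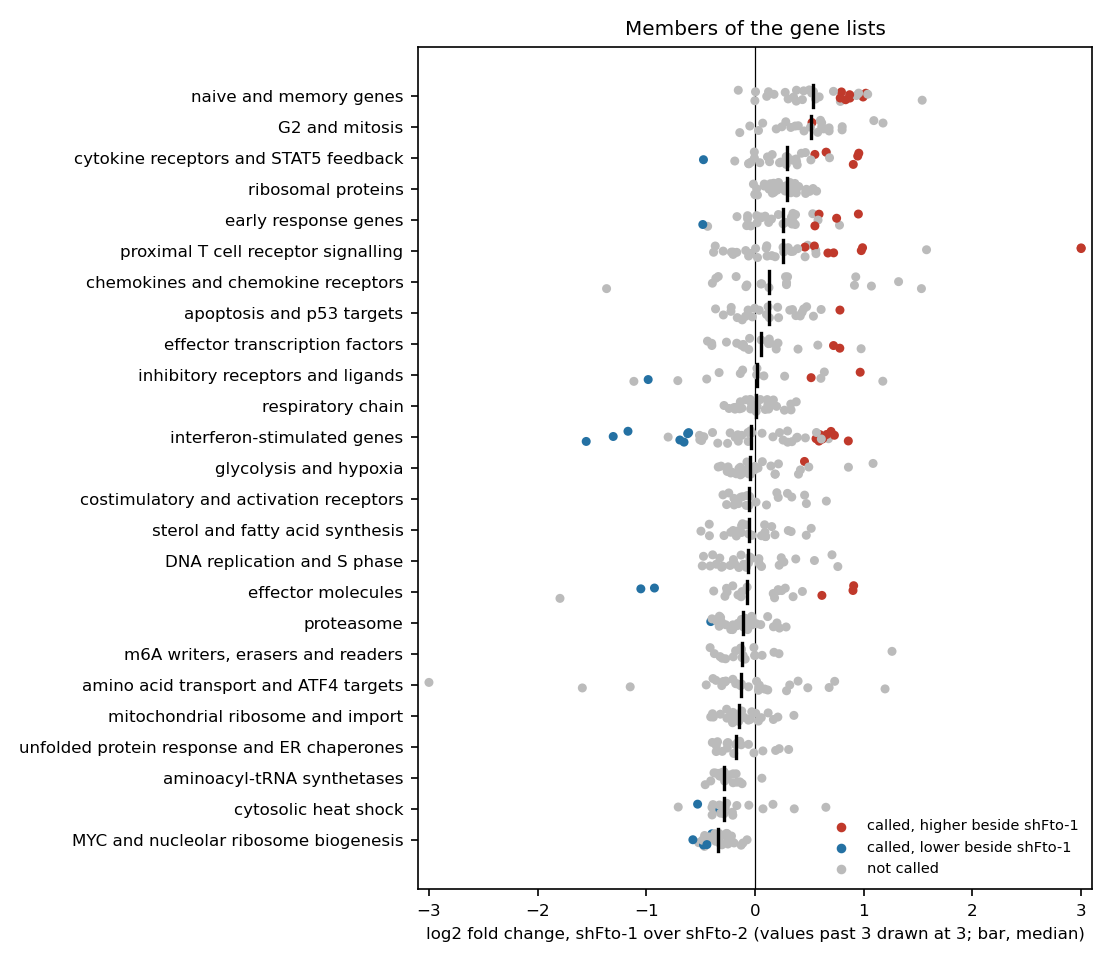
Log2 fold change of shFto-1 over shFto-2 for each tested member (points) of 25 gene lists, ordered by median (bar), with called members coloured and values past 3 drawn at 3. Naive and memory genes lie at the top with a median of 0.54 and MYC and nucleolar genes at the bottom with -0.34.

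Interferon-stimulated genes held the most calls of any list, 10 of 48 higher and 7 lower, at a median of -0.04. The 2 sides differ by family. Of the 10 guanylate-binding proteins, GTPases that attack intracellular pathogens, 8 were higher beside shFto-1 and 0 lower. Of the 4 IFIT genes, which bind foreign RNA, 4 were lower. These families were picked after their values were seen, and near-identical copies within them can share reads, so single members are uncertain. Promoters of 2 genes from each side were picked for the element types they carry, so they do not stand for their sides. Each is a RefSeq window of 300 bases around the gene's start, the last 50 of them after it, in build GRCm38.p6. Capitals mark GAAANNGAAA (ISRE-type) and TTCNNNGAA (GAS-type) on either strand, motifs chosen after the data were seen. Gbp7 (chr3:142530086-142530385 on the plus strand) and Irf1 (chr11:53769764-53770063 on the plus strand) were higher beside shFto-1, and Rsad2 (chr12:26456403-26456702 on the minus strand) and Ifit1 (chr19:34640639-34640938 on the plus strand) were lower.
Gbp7: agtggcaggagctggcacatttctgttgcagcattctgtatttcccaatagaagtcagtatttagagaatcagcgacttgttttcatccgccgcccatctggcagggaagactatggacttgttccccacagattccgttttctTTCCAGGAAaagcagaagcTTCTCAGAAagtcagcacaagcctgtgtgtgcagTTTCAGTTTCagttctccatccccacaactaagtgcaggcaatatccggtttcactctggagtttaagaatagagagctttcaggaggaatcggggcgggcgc
Irf1: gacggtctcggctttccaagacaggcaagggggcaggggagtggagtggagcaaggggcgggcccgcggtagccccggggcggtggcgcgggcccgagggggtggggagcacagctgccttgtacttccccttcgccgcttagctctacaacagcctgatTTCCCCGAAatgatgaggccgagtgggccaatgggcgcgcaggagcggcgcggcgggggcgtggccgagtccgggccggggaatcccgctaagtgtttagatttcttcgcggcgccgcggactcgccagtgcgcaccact
Rsad2: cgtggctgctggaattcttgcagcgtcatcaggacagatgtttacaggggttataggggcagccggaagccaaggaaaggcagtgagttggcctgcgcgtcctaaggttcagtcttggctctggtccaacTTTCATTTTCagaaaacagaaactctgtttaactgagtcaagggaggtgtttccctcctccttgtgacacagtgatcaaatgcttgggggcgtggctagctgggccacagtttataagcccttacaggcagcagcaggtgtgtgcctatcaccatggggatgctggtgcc
Ifit1: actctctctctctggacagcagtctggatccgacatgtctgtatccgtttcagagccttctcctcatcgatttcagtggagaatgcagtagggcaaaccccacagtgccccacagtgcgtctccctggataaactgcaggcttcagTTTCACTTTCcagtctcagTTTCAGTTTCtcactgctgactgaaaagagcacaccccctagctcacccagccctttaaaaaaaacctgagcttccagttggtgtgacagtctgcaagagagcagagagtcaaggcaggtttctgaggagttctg

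Irf1 held a GAS-type repeat, Gbp7 both types, and Rsad2 and Ifit1 the ISRE type only. Other genes went against that division. On the higher side Gbp2 held the ISRE type only and Tap1 neither, and on the lower side Ifit2 held the GAS type only and Cmpk2 neither. Of the 10 interferon-stimulated genes higher beside shFto-1, 6 had a promoter in the table, 4 with a GAS-type and 4 with an ISRE-type repeat. Of the 7 lower, 6 had one, 1 with a GAS-type and 4 with an ISRE-type repeat. Over all genes higher beside shFto-1 with a promoter, 27 of 129 (20.9%) held a GAS-type repeat, against 4 of 49 (8.16%) of the lower ones and 8.53% of all tested genes. The ISRE type stood in 7.75% of the higher, 12.2% of the lower and 3.84% of all tested genes. CACGTG, the E-box that MYC can bind, stood in 9.3% of the higher, 8.16% of the lower and 11.4% of all tested genes. The AP-1 motif TGANTCA stood in 10.1%, 14.3% and 6.43% of the same sets, and the CRE motif TGACGTC in 3.1%, 6.12% and 6.26%. Both strands were searched. A match is a stretch of letters and no measure of binding.

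On the higher side, the interferon regulatory factor Irf1 (chr11:53770014-53778374) lay at 891 and 724 CPM next to shFto-1 cells, against 494 and 397 CPM next to shFto-2 cells and 1123 and 1034 CPM next to shNC cells (log2 fold change 0.86, SE 0.13, adjusted p = 0.0222). Gbp2 lay at 1552 and 1498 CPM for shFto-1, at 1054 and 923 CPM for shFto-2 and at 2037 and 2246 CPM for shNC (log2 fold change 0.63, SE 0.094, adjusted p = 0.0222), and Gbp4 had a fold change of 0.73 (adjusted p = 0.0372). The peptide transporter Tap1 at 0.66 (adjusted p = 0.0264) and the immunity-related GTPase Igtp at 0.63 (adjusted p = 0.0372) were called too. In all of these the shNC libraries were highest.

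On the lower side, Rsad2, the antiviral enzyme viperin (chr12:26442743-26456452), lay at 71.1 and 56.7 CPM in the shFto-1 co-cultures, 156 and 163 CPM in the shFto-2 co-cultures and 65.7 and 83.3 CPM in the shNC co-cultures (log2 fold change -1.30, SE 0.14, adjusted p = 0.0186). Only the shFto-2 libraries stood out, since those beside shFto-1 overlapped those beside shNC. Mx1, known as an antiviral GTPase in other mouse strains and annotated as a transcribed pseudogene in the RefSeq table of GRCm38.p6, lay at 14.0 and 11.3 CPM next to shFto-1 cells, against 45.1 and 30.0 CPM next to shFto-2 cells and 13.9 and 16.6 CPM next to shNC cells (log2 fold change -1.55, SE 0.23, adjusted p = 0.0222), and the nucleotide kinase Cmpk2, the chromosomal neighbour of Rsad2, at 18.4 and 15.0 CPM for shFto-1, at 38.7 and 37.5 CPM for shFto-2 and at 15.0 and 18.0 CPM for shNC (log2 fold change -1.17, SE 0.17, adjusted p = 0.0222). None of these 3 was called against shNC beside shFto-1, with adjusted p = 0.33 for Rsad2, 0.51 for Mx1 and 0.98 for Cmpk2. Beside shFto-2 all 3 were called higher than shNC, with fold changes of 1.08, 1.28 and 1.18. Ifit1 had a fold change of -0.69 (adjusted p = 0.0329), Ifit2 of -0.61 (adjusted p = 0.026), Ifit3 of -0.62 (adjusted p = 0.0222) and Ifit3b of -0.65 (adjusted p = 0.0393). Isg15 and Irf7, which belong to the same response, were not called, at -0.23 and 0.064. The apolipoprotein L family split as well, with Apol9a at -1.27 (adjusted p = 0.0218) and Apol9b at -1.53 (adjusted p = 0.0222) lower and Apol7e at 1.26 (adjusted p = 0.0222) higher. Without replicate 1 beside shFto-1 no interferon-stimulated gene was called, Rsad2 having an adjusted p of 0.0591, and without replicate 2 beside shFto-2 2 were higher and 5 lower.

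**Figure D5:**
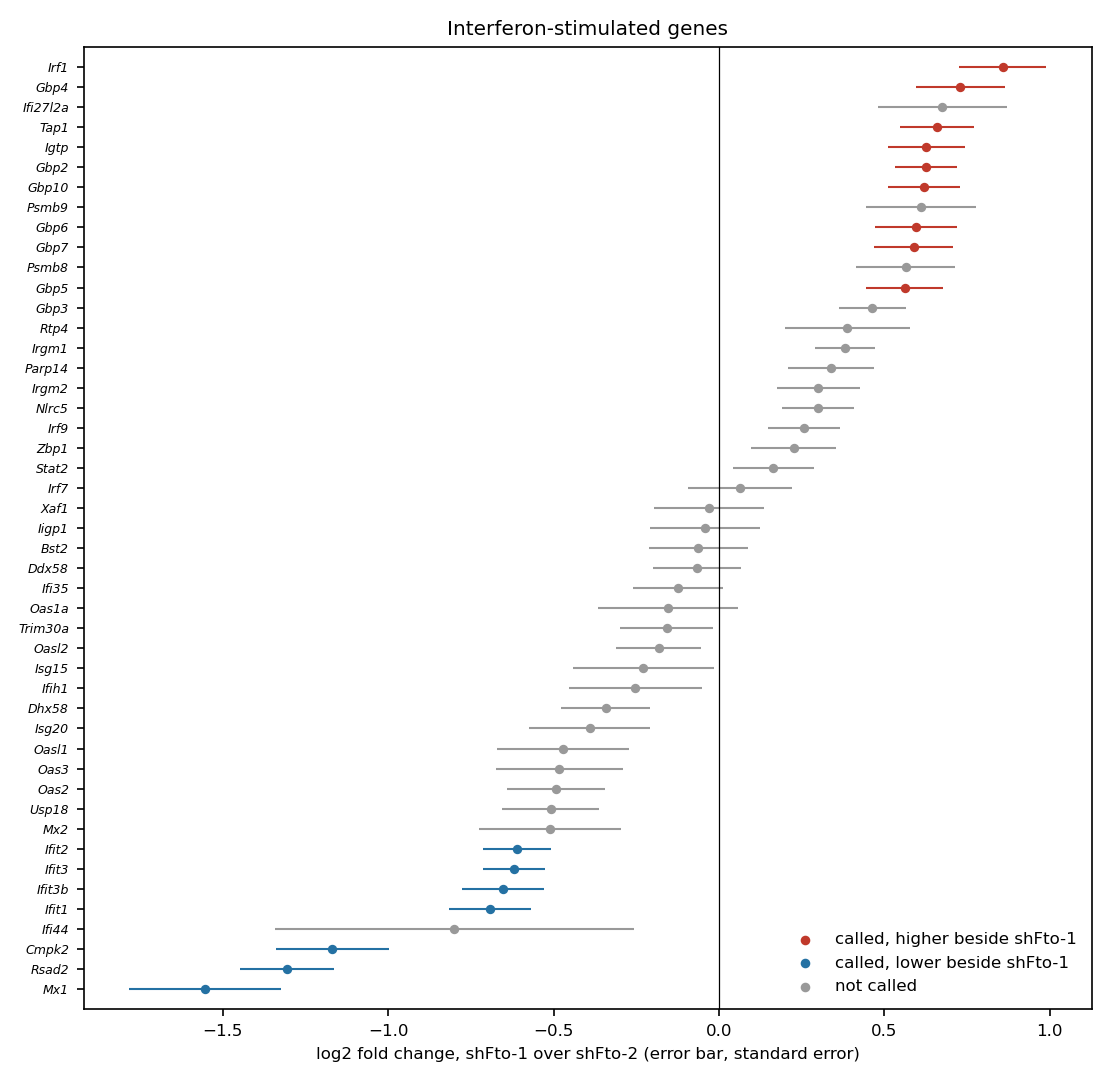
Log2 fold change of shFto-1 over shFto-2 for 47 of the 48 tested interferon-stimulated genes, with the standard error as a bar and called genes coloured. Irf1 lies at the top with 0.86 and Mx1 at the bottom with -1.55.

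Among the 12 largest rises, Hbp1, a repressor of cell cycle entry, lay at 21.3 and 14.2 CPM in the shFto-1 co-cultures, 1.01 and 5.58 CPM in the shFto-2 co-cultures and 28.2 and 31.7 CPM in the shNC co-cultures (log2 fold change 2.56, SE 0.51, adjusted p = 0.0421). Its 2 libraries beside shFto-2 were far apart, and over left-out libraries its fold change ran from 1.72 to 4.15. The integrin chain Itgb7, which pairs with alpha 4 for gut homing, lay at 50.0 and 43.8 CPM next to shFto-1 cells, against 20.7 and 16.9 CPM next to shFto-2 cells and 78.9 and 67.8 CPM next to shNC cells (log2 fold change 1.32, SE 0.16, adjusted p = 0.0218). The death-domain receptor Tnfrsf25 had a fold change of 1.36 (adjusted p = 0.0257). Dgat1, which makes triglycerides, lay at 39.9 and 21.7 CPM for shFto-1, at 12.3 and 9.72 CPM for shFto-2 and at 29.6 and 38.2 CPM for shNC (log2 fold change 1.51, SE 0.28, adjusted p = 0.0374), with a fold change of 0.96 to 1.85 over left-out libraries. N4bp2l1, Nsg2, Nacc2, Ptpre and Apol7e were others, at 1.41, 1.20, 1.21, 1.27 and 1.26. The linker histone Hist1h1d and the core histone Hist1h3e were also among them. Among the 12 largest falls beside those already given, Acsl6, which activates fatty acids, had a fold change of -1.54 (adjusted p = 0.0374), the adhesion molecule Alcam one of -0.96 (adjusted p = 0.0222) and Nudcd1 one of -1.40 (adjusted p = 0.0479).

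Further gene families, picked after their values were seen, were taken whole. Over all genes tested, 1.42% were called higher and 0.491% lower, the shares to set beside the counts of each family here. Of 8 GIMAP GTPases, which support lymphocyte survival, 5 were higher and 0 lower. In 8 of 8 both libraries beside shFto-1 lay above both beside shFto-2, against 23.2% of all tested genes. Gimap4 lay at 786 and 694 CPM in the shFto-1 co-cultures, 466 and 374 CPM in the shFto-2 co-cultures and 1044 and 1039.5 CPM in the shNC co-cultures (log2 fold change 0.82, SE 0.12, adjusted p = 0.0222). Of 49 tested histone genes 4 were higher and 0 lower, at a median of 1.22. Hist1h1d lay at 158 and 85.1 CPM next to shFto-1 cells, against 48.2 and 52.0 CPM next to shFto-2 cells and 81.4 and 96.2 CPM next to shNC cells and Hist1h3e at 81.6 and 40.7 CPM for shFto-1, at 25.4 and 21.2 CPM for shFto-2 and at 23.2 and 31.7 CPM for shNC. In both the gap between the 2 libraries beside shFto-1 was wide, replicate 1 being the higher, and without that replicate their fold changes were lowest, at 0.76 and 0.79. Histone copies also share sequence. Of 11 purine synthesis enzymes 3 were lower, Atic, Pfas and Ppat, at -0.49, -0.48 and -0.49. Of 12 eIF3 subunits, which help ribosomes start translation, 2 were lower, Eif3b at -0.42 and Eif3c at -0.41.

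The summed level of 12 CD8 T cell markers was 4596 and 4608 CPM beside shFto-1, 4149 and 3999.7 CPM for shFto-2, against 5129 and 4903 CPM for shNC, so that the lines did not overlap. Cd8a lay at 285 and 271 CPM in the shFto-1 co-cultures, 275 and 239.8 CPM in the shFto-2 co-cultures and 369 and 351 CPM in the shNC co-cultures and was not called (adjusted p = 0.71). Markers of pigment cells summed to 2358 and 2163 CPM beside shFto-1, 2012 and 2293 CPM in those beside shFto-2, against 1616 and 2045 CPM beside shNC, so that the lines overlapped. In the tumour libraries they summed to between 26781 and 27652 CPM with shFto. Of 21 tested pigment genes Mlana was the 1 called by edgeR, at 0.62 (adjusted p = 0.0266). At an unadjusted p under 0.05, 4 were higher beside shFto-1 and 0 lower, and DESeq2 called 3, all higher. Over 7 pigment genes the median level was 8.58 to 9.76% of the tumour shFto level beside the lines and 6.15 to 8.29% beside shNC. The T cell and tumour tables were scaled separately, so these are levels set side by side. Among 2374 tested genes with a mean under 1 CPM over the tumour libraries, 76 were called (3.2%), 66 higher (2.78%) and 10 lower (0.421%). The part of tumour RNA in genes that the tumour also expresses was not tested.

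Nuclear long noncoding RNAs, mostly Malat1, summed to 15269 and 13163 CPM beside shFto-1, 11624 and 9718 CPM for shFto-2, against 16992 and 17635 CPM beside shNC, so that this sum separated the lines in the same order as the resting genes. Malat1 itself had a fold change of 0.45 with an adjusted p of 0.0548, and edgeR called none of the 6 tested, with 2 higher at an unadjusted p under 0.05 and 1 called by DESeq2. Of these 6 genes, 3 had a fold change above 0 and 3 below, so the sum does not stand for each member. The part of nuclear RNA content in the gene groups above was not tested. Marker sums of B cells lay at 10.9 CPM or less beside both lines, those of NK cells at 23.7 CPM or less, those of myeloid cells between 21.9 and 30.0 CPM, and those of red cells at 1.38 CPM or less. Markers of CD4 and regulatory T cells summed to between 129.3 and 145.4 CPM beside the lines and overlapped between them. Fibroblast and endothelial markers had summed levels of 647 and 632 CPM in the shFto-1 co-cultures, 575 and 613 CPM in the shFto-2 co-cultures and 633 and 610.0 CPM in the shNC co-cultures, without overlap of the lines. Most of that sum was Thy1, which T cells also express, at 439 and 424 CPM next to shFto-1 cells, against 422 and 435 CPM next to shFto-2 cells and 343 and 327 CPM next to shNC cells. Thy1 itself overlapped between the lines, so the separation of the sums lay in the other markers. In the tumour libraries with shFto the sum was 151 to 186 CPM. Of the 8 tested edgeR and DESeq2 called none, 1 was higher at an unadjusted p under 0.05, and the part of such cells in the results was not tested.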

How the data were processed

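Per the labels' protocols, RNA was extracted with Trizol and made into libraries with a stranded total RNA kit. Trim Galore 0.6.0 and STAR 2.7.0f are among the tools in the submitters' processing notes, which give mm10 as the build; the counting tool, its strand setting and the annotation are not given in the sources used here. Per the file headers, the deposited T cell and tumour tables list unnormalized read counts by gene symbol, with a column for each library.

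The 6 T cell libraries were fitted together in edgeR 4.0.16 (R 4.3.3) with TMM scaling and its default filter on low counts, which left 3 residual degrees of freedom, so the shNC libraries share in the estimate of the spread (common biological coefficient of variation 0.199). The standard error is the fold change over the root of the F statistic. Contrasts were tested by the quasi-likelihood test over 12824 genes. DESeq2 1.42.0, other scalings and filters, the 4 libraries alone, a replicate block and each library left out were alternatives. The fit was tested on simulated data. Promoters and gene positions come from RefSeq tables of GRCm38.p6, in which 12785 of the 12824 tested symbols were found. Named genes are the 12 largest rises and falls at a mean of 10 CPM or more without overlap, up to 4 members per list by adjusted p, genes with no count in 1 line, T cell markers and 5 activation genes; genes named outside this rule were chosen after their values were seen. Members and lists were chosen with earlier results of these data known. Tumour ATAC and m6A peak lists were not used here. Some genes are not reported here, though they stay in all counts and medians.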

Additional observations from a re-analysis of the deposited data

How the results depend on the processing

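The number of genes called between the lines moved with nearly every choice, while none of the 245 called genes reversed its direction. The genes were chosen from the same libraries that the alternatives reuse, so their kept direction is little support. The 245 calls (182 higher and 63 lower beside shFto-1, 56 at least 2-fold) became 147 (106 and 41) with DESeq2's size factors in edgeR, 1008 (522 and 486) with DESeq2, 838 (592 and 246, 127 at least 2-fold) with no filter on low counts and 688 (494 and 194, 97 at least 2-fold) at a mean of at least 10 CPM. With the 4 libraries of the lines alone they became 113 (85 and 28, 33 at least 2-fold). Leaving out each library in turn gave 1 to 507 calls, 1 to 448 higher, 0 to 95 lower and 1 to 244 at least 2-fold. The 0 lower calls came without replicate 1 beside shFto-1, where edgeR's quasi-likelihood test left 652 genes lower at an unadjusted p under 0.05; the lone library was then assumed to vary like the other groups. Of the 245 genes, 241 were also called by DESeq2, 112 with the 4 libraries alone and 63 without replicate 2 beside shFto-2. Against shNC, the calls beside shFto-1 ran from 1587 to 2878 over left-out libraries and those beside shFto-2 from 3298 to 4202; no other choice moved either by over 1.5 times. Whether the replicate numbers pair the samples could not be settled with so few libraries a group. Replicate deviations correlated at 0.20 between the lines, at -0.15 between shFto-1 and shNC and at 0.01 between shFto-2 and shNC. A replicate block gave 446 calls (344 and 102). Total counts per library, the lowest being 2628158, limit calls among genes of few counts, and the cause of these shifts was not tested.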
